A study of Glycine max with 8 samples.

Results

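Isolated binding regions of the protein encoded by GLYMA.08G357600 were examined in soybean (Glycine max, cultivar Williams 82) embryos at the mid-maturation stage, when the embryo lays down storage protein and oil. A region joined peaks of the 2 deposited ChIP-seq peak lists that overlapped by at least 1 bp, and the lists came from 1 ChIP biological replicate each (list 1 and list 2). Regions were chosen by peak position on the chromosomes: no other peak of either list started or ended within 100000 bp of the region's midpoint, and the midpoint lay below 40% or above 60% of the chromosome length. These rules gave 259 members of the 15792 chromosomal regions present in both lists, or 1.64% (Wilson 95% interval 1.45% to 1.85%). Of the 14852 shared regions outside the middle they made up 1.74%, and the other 14593 had a peak nearer by. With the peaks of 1 list taken alone, 418 list 1 peaks and 414 list 2 peaks met the same limits.

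ChIP-seq collects crosslinked DNA fragments with an antibody against a protein and counts them along the genome; a peak is a stretch with more fragments than the background measured in input chromatin. The 8 libraries comprised 4 ChIP and 4 input libraries, from 2 biological replicates on 2 lanes each. ChIP used an antibody against a peptide of the protein; input was chromatin set aside before that step and had no antibody. All plants were of the same cultivar and were grown in a greenhouse, and embryos were dissected from seeds of a set weight range. The embryo identity of the material could not be checked against marker genes, because a peak list holds no expression values.

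Soybean chromosomes, as background, have gene-rich arms and a wide middle part around the centromere that is rich in repeats and poor in genes. Proteins that bind regulatory DNA often sit at several sites near the same gene, so that binding regions come in groups. A region with no neighbour over a long stretch is the opposite arrangement. Which genes lie near the isolated regions is not reported, since no label, file or note used here names the genome build behind the coordinates; for the same reason no sequence was read.

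Enrichment at the isolated regions ran from weak to strong. Their highest folds lay below those of the other regions, a far larger group, whose maximum can be higher from its size alone. The fold enrichment, given in the deposited lists as fragments at the summit over local background, ran from 1.45 to 49.1 in list 1, with a median of 6.73 and quartiles of 4.95 and 10.0. In list 2 it ran from 1.82 to 55.4, with a median of 7.23 and quartiles of 5.41 and 11.01. The other regions outside the middle had medians of 6.93 and 7.24 and reached 76.2 and 87.1. The medians of isolated and other regions thus lay closer together than the medians of the lists for isolated regions, which had an SD of 0.355 over the 2 lists. That SD is a difference between 2 lists of unlike depth and not a sampling error of a median. These comparisons carry no test, since fold and position come from the same peak calls.

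**Figure D1:**
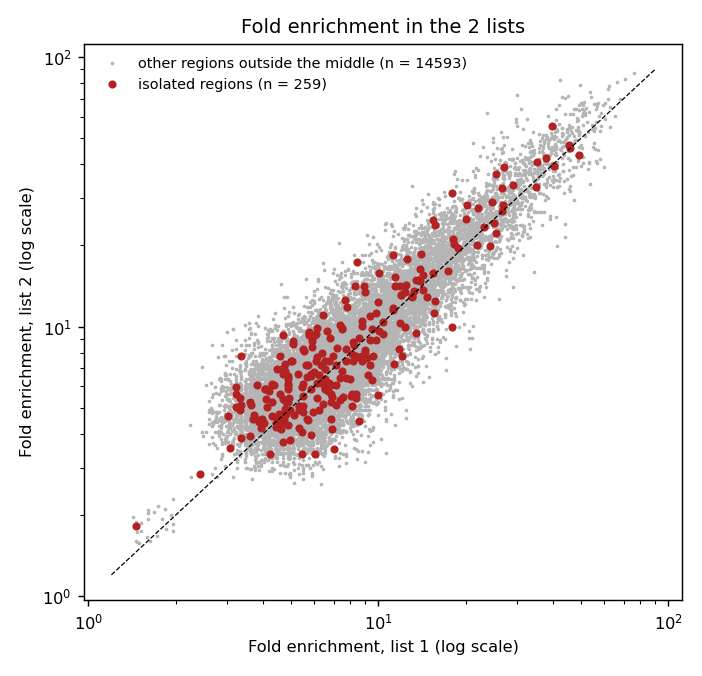
Fold enrichment of each shared region outside the chromosome middle in list 1 (x axis, log scale) and list 2 (y axis, log scale); red points are the 259 isolated regions, grey points the other 14593, and the dashed line marks equal folds. Isolated regions lie within the grey cloud up to folds of 49.1 and 55.4, and the lowest lies at 1.45 and 1.82. The others, a far larger group, reach 76.2 and 87.1.

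The summit pileup, the number of overlapping ChIP fragments at the summit, had a median of 37 at isolated regions in list 1 (range 17 to 296) and of 29 in list 2 (range 15 to 282). The other regions outside the middle had medians of 39 and 31. Isolated regions were also slightly narrower, with a median width of 426 bp against 453 bp. Only 4 exceeded 1000 bp, or 1.54% (interval 0.602% to 3.90%), against 2.49% of the others.

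Strong and weak isolated regions occurred in about the proportions of all shared regions. All shared regions were put in order of fold, by averaging each one's percentile rank over the 2 lists, and were cut into 5 equal parts; the isolated ones numbered 53, 47, 61, 44 and 54 from the weakest part to the strongest. A fold of at least 10 in both lists was found at 58 isolated regions, or 22.4% (interval 17.7% to 27.9%), and at 24.3% of the others. A fold of at least 20 in both was found at 21, or 8.11% (interval 5.36% to 12.1%), and at 7.05% of the others. At the low end, 31 isolated regions had a fold under 5 in both lists, or 11.97% (interval 8.56% to 16.5%), against 10.1%. Each of these 3 shares of the others lay within the interval of the isolated regions. The intervals cover counting error only and treat regions of the same 2 lists as independent, so this is a description and not a test.

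Median folds were also alike when regions outside the middle were sorted by distance to the nearest other peak. Where that peak was under 1 kb away, the 2025 regions had median folds of 7.01 and 7.24; at 5 to 20 kb (5158 regions) they were 6.83 and 7.21, and at 50 to 100 kb (422 regions) 6.93 and 7.45. Among isolated regions, the 170 with a neighbour at 100 to 200 kb had median folds of 6.73 and 7.48. The 75 with the nearest peak at 200 to 500 kb had 6.52 and 6.86, and the 14 beyond 500 kb had 7.60 and 7.48. No steady trend with distance was seen in either list. Across the 259 isolated regions, the Spearman rho between distance and fold was -0.029 in list 1 and -0.025 in list 2, a description over regions that share the same libraries.

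**Figure D2:**
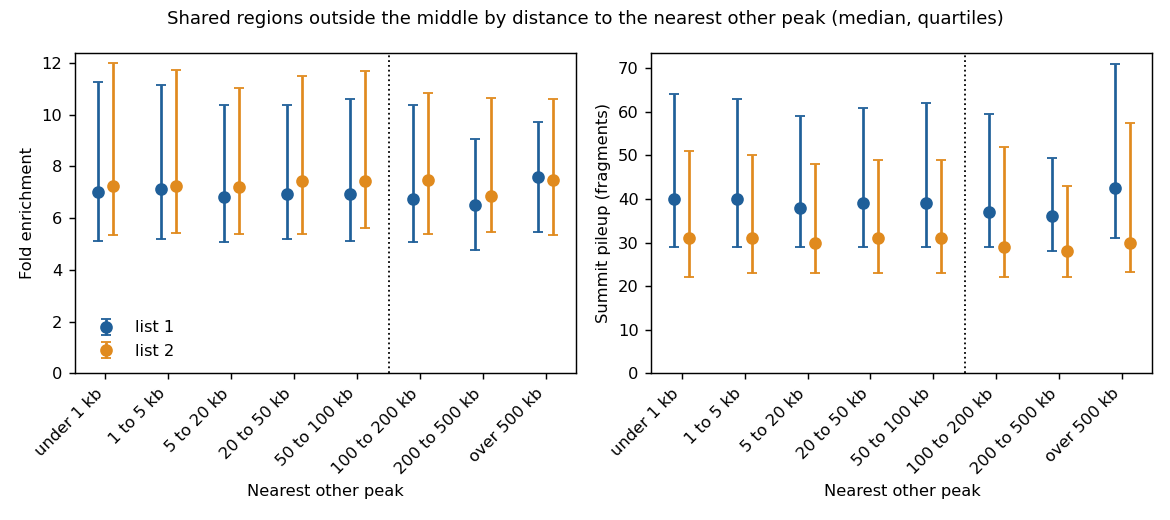
Median (points) and quartiles (bars) of fold enrichment (left) and summit pileup in fragments (right) for shared regions outside the chromosome middle, grouped by distance to the nearest other peak; blue is list 1 and orange list 2, and groups right of the dotted line are isolated. Median folds stay between 6.52 and 7.60 from under 1 kb to over 500 kb, and the last group holds only 14 regions.

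By mean rank of fold over the lists, the strongest isolated region lay on chromosome 3 from 6904103 to 6905347. Its fold was 39.8 in list 1 and 55.4 in list 2, its pileups were 296 and 282 fragments, and the nearest peaks were 197 kb below and 404 kb above it. At 1245 bp it was also the second widest. Chromosome 2 held the next in rank, from 34352392 to 34353288, with folds of 45.3 and 47.3 and 802 kb without a peak on its lower side. A region on chromosome 6 from 34930283 to 34930936 had folds of 45.7 and 45.9. Chromosome 15 followed, from 42699403 to 42700343, with folds of 49.1 and 43.4 and empty stretches of 509 kb and 345 kb. These 4 regions had folds of at least 39.8 in each list, and each stood alone in a stretch of at least 520 kb.

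The next in rank, on chromosome 19 at 13715157 to 13716062, had folds of 37.8 and 42.3, and then came chromosome 17 at 34360493 to 34361143 with 40.2 and 39.5. They were followed by a region of chromosome 14, 38623440 to 38624219, with folds of 35.2 and 40.7, and by one of chromosome 13, 13161734 to 13162446, with 34.8 and 33.1. The last places among the 10 went to chromosome 18, at 54132233 to 54132962 with 27.2 and 39.0 and at 10619759 to 10620545 with 29.1 and 33.4. The 10 lay on 9 chromosomes, were 651 to 1245 bp wide, and had a higher fold in list 2 in 7 cases. Their summits lay at most 27 bp apart between the lists in 8 cases and at most 99 bp apart in all 10.

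The 21 isolated regions with a fold of at least 20 in both lists were spread over 12 chromosomes. Their pileups were 106 to 296 fragments in list 1 and 88 to 282 in list 2. The nearest other peak was a median of 163 kb away, against 157 kb for the remaining isolated regions. Their summits lay a median of 18 bp apart, against 31 bp.

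On the other 11 chromosomes the highest-ranked isolated region was weaker. It had folds of 25.1 and 24.3 on chromosome 20 (358559 to 359301), 22.1 and 27.4 on chromosome 8 (30771177 to 30771912), and 21.8 and 20.01 on chromosome 11 (28637711 to 28638347). On chromosome 9 (11659855 to 11660720) it had 18.0 and 31.3, on chromosome 10 (33299383 to 33300029) 15.7 and 23.9, and on chromosome 16 (23801055 to 23801769) 18.8 and 19.6. Chromosome 7 (28239957 to 28240571) had 12.5 and 17.8. Lowest by mean rank were the top regions of chromosome 1 (11346485 to 11347039) at 13.3 and 13.5, chromosome 4 (18718015 to 18718525) at 13.1 and 13.0, chromosome 5 (25584222 to 25584845) at 13.1 and 12.9, and chromosome 12 (30079963 to 30080566) at 11.8 and 14.2. Chromosome 1 had 21 isolated regions, none of them above these folds of 13.3 and 13.5.

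Isolated regions became more frequent toward the chromosome middle. The parts from 20% to 40% and from 60% to 80% of the length each held 101 of them, together 202 or 78.0%, while the first 20% held 38 and the last 20% held 19. Among all shared regions in the same parts, 4.69% and 5.25% were isolated in the inner parts, and 0.716% and 0.347% in the outer ones. The share climbed from 0.134% in the bin from 5% to 10% of the length to 8.45% just below the middle, and from 0.0637% in the last 5% to 12.5% just above the middle. Inside the middle, which the rule leaves out, 129 of 940 shared regions were isolated, or 13.7% (interval 11.7% to 16.1%). The rule itself uses the spacing of peaks, so these shares describe the layout of peaks and support nothing further.

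**Figure D3:**
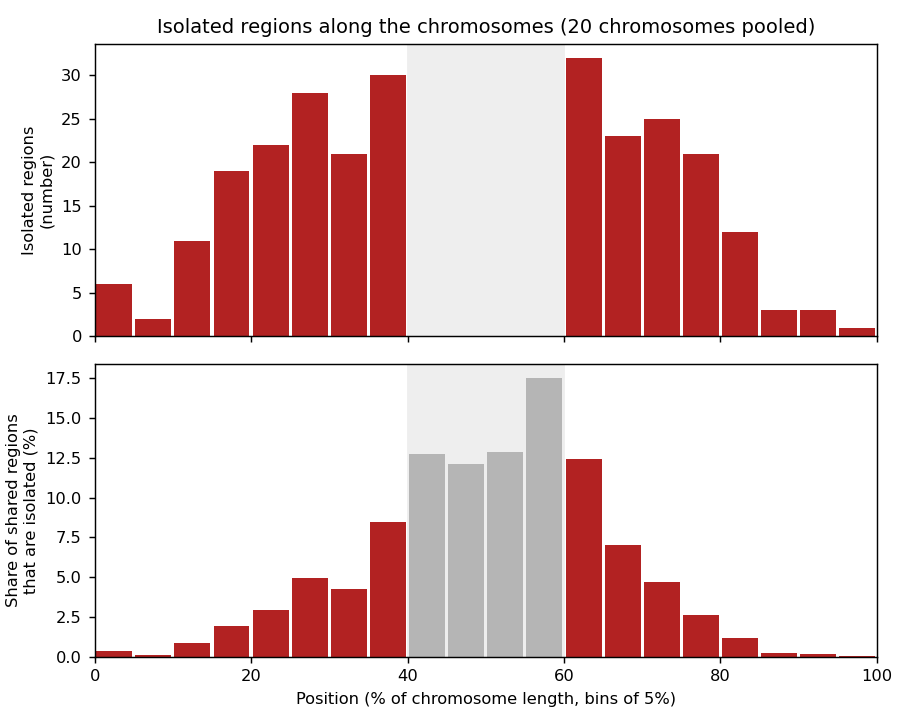
Number of isolated regions (top) and percent of all shared regions that have no other peak within 100000 bp (bottom) in bins of 5% of chromosome length, 20 chromosomes pooled; the shaded middle is left out by the rule, and its shares in the bottom panel are grey. Counts are highest next to the middle, with 30 just below and 32 just above it, and fall to 3 or fewer in each bin beyond 85%.

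Median folds showed no common order toward the middle across both lists and both sides. Isolated regions in the first 20% of the length had median folds of 6.68 and 6.77, those from 20% to 40% 6.56 and 6.54, those from 60% to 80% 6.73 and 7.48, and those in the last 20% 6.12 and 7.70. The 129 isolated regions inside the middle had median folds of 6.83 and 7.21. The medians of all shared regions were 6.93 and 7.24, and the last 20% held only 19 isolated regions. In list 2 the medians were lower below the middle than above it. The 8 isolated regions in the first 10% of the length had higher medians, 8.61 and 7.31, and the 4 in the last 10% had 9.57 and 9.81. Other regions had 6.93 and 7.21 in both of these parts. Groups of 8 and 4 are too small to read a trend from.

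Chromosomes differed in how many isolated regions they held, with a mean of 13.0 ± 5.21 (SD, n = 20 chromosomes). Chromosome 14 held the most, 24, then chromosomes 1 and 18 with 21 each and chromosome 20 with 19. Chromosome 8 held 5, chromosome 11 held 6 and chromosome 13 held 7. As a share of shared regions outside the middle, chromosome 14 reached 3.72% (interval 2.51% to 5.47%) and chromosome 16 3.51% (2.204% to 5.55%), while chromosome 8 had 0.551% (0.235% to 1.28%). The 3 chromosomes with the fewest were dense in regions, at 20.5, 23.7 and 25.4 shared regions per Mb on chromosomes 8, 11 and 13. Chromosomes 14, 1 and 18 had 14.0, 13.0 and 12.8 per Mb. Others followed this order less closely: chromosome 17 had 21.1 per Mb and 10 isolated regions, and chromosome 15 had 13.6 per Mb and 13. The densities count the middle as well. Density and isolation both measure the spacing of peaks, so the rule itself ties them together.

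On several chromosomes the isolated regions lay on 1 side of the middle. All 19 on chromosome 20 were below 40% of the length, and all 10 on chromosome 17 were above 60%. Chromosome 6 had 1 below and 9 above, chromosome 9 had 10 and 2, and chromosome 10 had 11 and 3. On chromosome 18 they were nearly even, with 12 and 9, as on chromosome 1, with 11 and 10. The middle was set by length and not by the centromere, whose place on these coordinates is not used here.

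**Figure D4:**
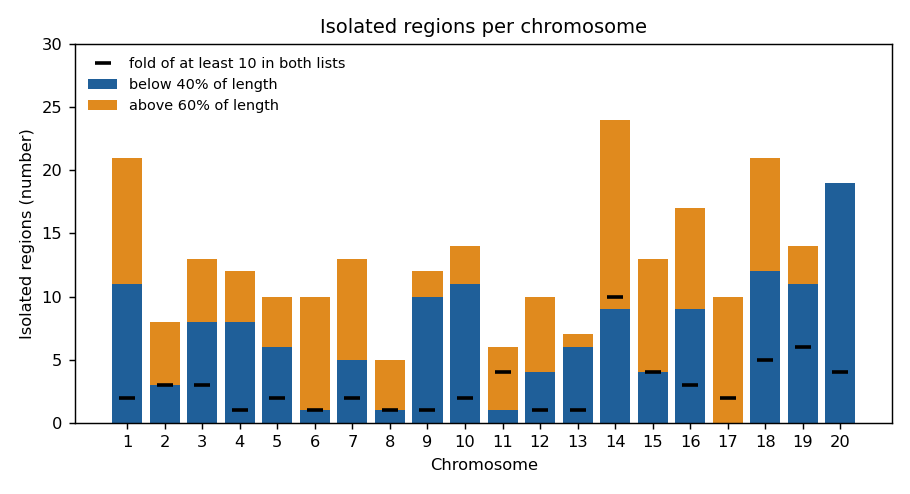
Number of isolated regions on each chromosome, stacked by side of the middle (blue below 40% of the length, orange above 60%); black marks give the number with a fold of at least 10 in both lists. Chromosome 14 has the most regions, 24, and the most strong ones, 10, and chromosomes 17 and 20 have isolated regions on 1 side only.

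Chromosome 14 also had the most strong isolated regions. A fold of at least 10 in both lists was reached by 10 of its 24 isolated regions, where 24.9% of its other regions outside the middle did. A run of 3, with no peak of either list between them, consisted of the region at 38623440 named above, a second at 38858997 to 38860393 with folds of 15.4 and 24.8, and a further one at 39044869 to 39045592 with folds of 25.3 and 22.1. Another on this chromosome, from 17040319 to 17041077, had folds of 23.2 and 23.3 and pileups of 172 and 118 fragments. Chromosomes 11 and 19 had such folds at 4 of 6 and 6 of 14 isolated regions, and at 22.6% and 24.4% of their other regions outside the middle. Their isolated regions had median folds of 14.5 and 14.2, and of 12.1 and 9.38, against 6.80 and 6.94, and 6.84 and 7.22, at their other regions outside the middle. On the remaining chromosomes 1 to 5 isolated regions reached this level. These 3 chromosomes were picked after the values of all 20 had been seen, and groups of 6 to 24 regions are small.

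The distance to the nearest other peak varied widely. The median was 158 kb, with quartiles of 117 and 233 kb, and 142 of the 259 had none within 150 kb. Within 200 kb 89 stood alone, within 300 kb 41, within 500 kb 14 and within 1000 kb 3. The other side was often much emptier: 82 isolated regions had more than 500 kb without a peak on their farther side and 35 more than 1000 kb. A further 4 were the first or last peak of a chromosome and had a neighbour on 1 side only.

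The most isolated region of all lay on chromosome 1 from 18531345 to 18532031, with 1377 kb and 1213 kb free of peaks below and above it. Its folds were 9.58 and 7.74 and its pileups 46 and 28 fragments. The next, on chromosome 19 from 10944485 to 10945017, was strong, with folds of 19.98 and 25.1, and had about the same free distance on both sides, 1052 kb below and 1052 kb above. Chromosome 10 held the third, from 16687025 to 16687533, with folds of 5.52 and 8.10. One on chromosome 7, 27266660 to 27267014, had folds of 6.84 and 5.25 and its nearest peak 973 kb away, and one on chromosome 8, 32341708 to 32342095, had 5.43 and 4.05 and 902 kb. These 5 thus ran from weak to strong.

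**Figure D5:**
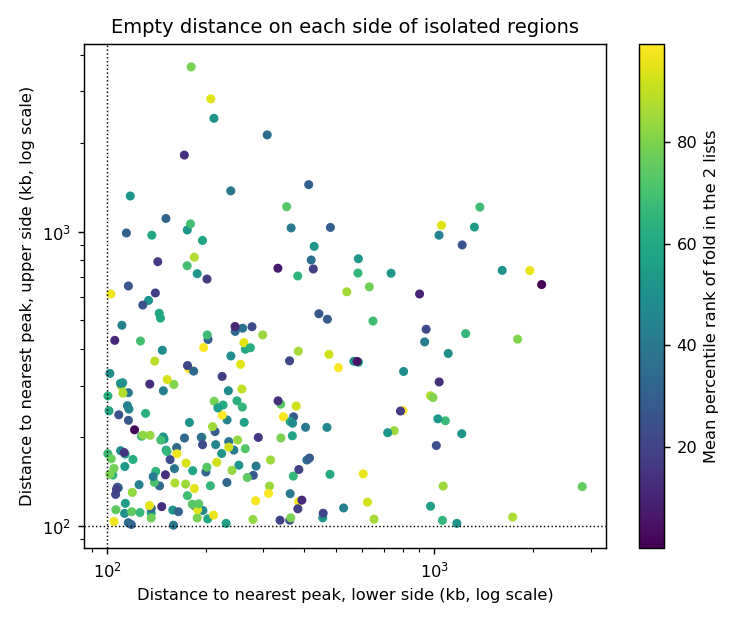
Distance in kb to the nearest other peak on the lower side (x axis, log scale) and on the upper side (y axis, log scale) for the isolated regions with a neighbour on both sides; colour is the mean percentile rank of fold in the 2 lists, and dotted lines mark the limit of 100 kb. High and low ranks occur at short and long distances, and 35 regions have more than 1000 kb free on their farther side.

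The widest stretches that held a single isolated region were bounded by long empty parts. On chromosome 6 the region from 30789294 to 30790181 (folds of 13.4 and 9.47) had 0.181 Mb free below it and 3.63 Mb above, together 3.81 Mb. Chromosome 20 had an empty part of 2.83 Mb with an isolated region at each end: from 13736786 to 13737547 (20.2 and 28.1, pileups of 138 and 119) and from 16566743 to 16567400 (10.3 and 9.40, pileups of 58 and 47). On chromosome 19 a region from 17228407 to 17229104 (24.5 and 29.0) stood in a stretch of 2.69 Mb. Whether reads could be aligned throughout these empty parts is not known here.

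Nearly as many isolated regions stood beside another isolated region as did not. With no other peak of either list between them, 123 formed 52 runs: 37 runs of 2, 14 of 3 and 1 of 7, and 136 had no isolated region beside them. Regions side by side share the gap between them, so the rule itself favours such runs. Whether runs were more frequent than the spacing of peaks alone would give was not tested. The run of 7 lay on chromosome 20 from 12277480 to 16567400, over 4.29 Mb. Its folds were 9.53, 7.51, 4.87, 6.24, 8.36, 20.2 and 10.3 along the chromosome in list 1, and 9.80, 9.81, 4.33, 6.60, 5.44, 28.1 and 9.40 in list 2. A run of 3 on chromosome 11 from 28637711 to 28986895 had folds of 21.8, 5.50 and 14.3 in list 1 and of 20.01, 4.81 and 15.6 in list 2. In both runs the strongest region of list 1 was also the strongest of list 2, and the weakest was the same region as well. Not every run did so. A run of 3 on chromosome 1 from 17154382 to 19744819 had folds of 4.89, 9.58 and 5.09 in list 1. In list 2 they were 6.14, 7.74 and 8.62, so the strongest region differed. In the run of chromosome 14 from 38623440 to 39045592 the weakest region differed between the lists.

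The nearest other peak of an isolated region belonged to a shared region in 166 cases, or 64.1% (interval 58.1% to 69.7%), and was in list 1 alone in 59 and in list 2 alone in 34. For the other regions outside the middle the nearest was shared in 67.9%. Where the nearest was shared, the isolated region had the higher fold in 71 of 166 cases in list 1 and in 73 in list 2. The median folds were 6.90 and 7.23 at the isolated regions and 7.46 and 8.28 at these neighbours. The rho of fold between an isolated region and such a neighbour was 0.111 in list 1 and 0.0767 in list 2, over pairs that partly share regions.

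The lists agreed on isolated regions about as often as elsewhere. Outside the middle, a further 82 peaks of list 1 and 51 of list 2 met the same distance rule but had no partner. Of the isolated peaks or joined regions, 66.1% were thus in both lists (259 of 392 in all, interval 61.2% to 70.6%), against 67.6% of those with a nearer neighbour. Unpartnered isolated peaks were weak, with median folds of 4.45 in list 1 and 4.51 in list 2, and none was above 6.52 and 8.64. In list 1, 134 of the 259 isolated regions exceeded the strongest of them, and in list 2, 95 did. All unpartnered peaks outside the middle were about as weak, with median folds of 4.28 in list 1 (4907 peaks) and 4.72 in list 2 (2228 peaks). An isolated region needs a partner peak by definition, and a weak peak can lack one because it falls short of the calling limit in the other list. The definition itself thus favours higher folds at isolated regions than at unpartnered peaks, and no conclusion is drawn from that difference. Peaks absent from a list were not called there, which is not the same as a measured 0.

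Summits and ranks of the isolated regions were about as alike in the 2 lists as those of the other regions outside the middle. Peaks were joined only if they overlapped, and the median peak widths at isolated regions were 400 and 378 bp. Summits of joined peaks are thus close in part by construction, and their closeness alone does not show agreement of the lists. The median distance between summits was 29 bp, as at the other regions, and at most 100 bp apart in 94.2% (interval 90.7% to 96.5%), against 92.6%. The widest gap, 637 bp, was at the widest isolated region, of 1397 bp, on chromosome 14 from 38858997 to 38860393. Chromosome 18 held a gap of 286 bp, from 18645477 to 18646082 (folds of 5.86 and 3.95), and chromosome 1 one of 197 bp, from 40074761 to 40075177 (3.93 and 4.202). Across isolated regions, the fold had a rho of 0.806 between the lists and the pileup one of 0.870. The corresponding values at the other regions were 0.811 and 0.881.

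Each region's pileups in the lists were compared with a two-sided exact binomial test, run over the 14635 shared chromosomal regions whose summits lay within 100 bp of each other. Their median ratio, 1.25 fragments in list 1 per fragment in list 2, served as the expected value. Of the 244 isolated regions tested, 0 departed from it after Benjamini-Hochberg adjustment over all regions, where 0% of all regions did; by the exact binomial test the smallest adjusted p among isolated regions was 1. Before adjustment, 4 isolated regions (1.64%) had an exact binomial p under 0.05, against 438 regions overall (2.99%). The lowest p, 0.0296 by the exact binomial test, belonged to chromosome 16 from 25453539 to 25454060, with pileups of 58 and 28. Close behind was chromosome 10 from 10263463 to 10263900, with pileups of 45 and 20 and the highest ratio, 2.25. The log2 ratio of the isolated regions had an SD of 0.289, below the 0.349 that counting error alone gives. With 1 list on each side the test knows counting error alone, and failing it does not show equal binding. A region was tested only if both lists called a peak there, and the calls rest on the same pileups. Regions with unlike pileups could thus be missing from the start, so no conclusion on agreement of the lists is drawn from the test.

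Background at isolated regions was mostly low. The local background from input had a median of 4.45 fragments in list 1 and 3.14 in list 2, against 4.59 and 3.17 at the other regions outside the middle. It equalled the lowest level of the list, 3.91 and 2.74 fragments, at 29.3% of the isolated regions in list 1 and 27.8% in list 2, against 26.5% and 27.1% of the others. More than 5 times that level in both lists was found at 2 isolated regions, or 0.772% (interval 0.212% to 2.77%). Among the others it was found at 25, or 0.171%, a lower share. Both isolated ones lay on chromosome 13 and had the lowest folds of the isolated regions.

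The first of these, from 7358809 to 7359519, had folds of 1.45 and 1.82 although its pileups were 279 and 241 fragments, since its backgrounds were 192 and 132 fragments. It had no other peak for 2126 kb below and 661 kb above it. The second, from 45873399 to 45873632, was the last peak of the chromosome, with folds of 2.43 and 2.85, pileups of 80 and 65 and backgrounds of 32.3 and 22.2. The third lowest by mean rank, on chromosome 15 from 32620544 to 32620941, had backgrounds of 6.47 and 4.93 fragments, above the isolated medians, and folds of 3.08 and 3.54.

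Isolated regions at chromosome ends were few. The first peak of chromosome 9 (40811 to 41304) had folds of 9.99 and 5.57 and its nearest peak at 158 kb. The first peak of chromosome 10 (21712 to 22221) had 15.4 and 15.8, with the next peak at 149 kb, and the first of chromosome 13 (157657 to 158137) had 7.50 and 9.90, with the next at 164 kb. With the last peak of chromosome 13 they make up the 4 regions whose isolation was set by 1 side only.

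Regions close to the limits of the rule are given as a description, with no test. Just inside the distance limit, each with its nearest peak at 101 kb, were regions on chromosome 6 at 46305757 to 46306020 with folds of 4.88 and 6.01 and at 17779592 to 17780027 with 8.77 and 7.74, and on chromosome 20 at 4902609 to 4903012 with 6.14 and 9.88. Just outside it, at 99.5 to 99.8 kb, were regions on chromosome 7 at 13683267 to 13683929 with 12.9 and 16.0 and at 13583197 to 13583831 with 13.9 and 13.5, and on chromosome 5 at 11794918 to 11795470 with 18.1 and 20.5. These 3 had higher folds than the 3 just inside. At the position limits, the closest isolated regions kept lay at 60.01% on chromosome 6, 39.95% on chromosome 1 (22689078 to 22689779, folds of 4.86 and 6.54) and 60.1% on chromosome 18 (34843869 to 34844311, 5.73 and 7.23). The closest left out lay at 40.01% on chromosome 15 (20684948 to 20685510, 8.41 and 10.9), 59.98% on chromosome 3 (27403106 to 27403593, 13.3 and 11.9) and 40.04% on chromosome 9 (20084484 to 20084841, 6.25 and 9.04).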

How the data were processed

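Values came from 2 deposited narrowPeak lists of 21196 and 18385 peaks, 1 per ChIP biological replicate, with the lanes of each apparently joined. The submitters' processing notes name Bowtie 0.12.7, a read aligner, and MACS2, a peak caller; versions and settings of the latter and the genome build are not stated in any source at hand. In the deposited lists the authors give a fold (a ratio at the summit over local background, each with a pseudocount of 1), −log10 p and q, and a score. Coordinates are the authors', counted from 1; chromosome length is the highest peak end.

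Pileup and background were solved from the deposited fold and p; pileups came out whole within 0.01 for 100% of peaks. Read totals are not used here. Depth is known only as a ratio: from the lowest backgrounds, each divided by the narrowest peak width of its list (223 and 221 bp, taken as fragment length), list 1 was 1.41 times as deep. Where a region held several peaks of a list, the highest fold stood for it. The median, Spearman and exact binomial steps used Python 3.11.15, scipy 1.17.1 and statsmodels 0.14.6. Pileup recovery, the rule for isolated regions and the exact binomial test were checked on simulated data, and the other steps were not. The simulated test did not require a peak call in both lists. Wilson intervals cover counting error only. Named were the 10 highest mean ranks, the highest on each other chromosome, the 5 most isolated, the 3 widest, lowest and most displaced, and 3 on each side of each limit; other regions were chosen after their values were seen. Members, lists and rules were chosen with earlier results of these data known. That the replicates are biological rests on the labels.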

Additional observations from a re-analysis of the deposited data

How the results depend on the processing

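Of 71 alternatives, 45 moved a value by less than its error or a count by less than 1.5 times. For median fold and median pileup the error was the SD over the 2 lists, which differ in depth. The number of isolated regions, 259, follows the limits that define it: 681 with no other peak within 50000 bp, 89 within 200000 bp, 153 with 30% to 70% of the length left out and 446 when only peaks of shared regions counted as neighbours. Their share of shared regions was then 4.31%, 0.564%, 0.969% and 2.82%, 2.46% with no part left out and 3.00% with peaks of −log10 q of at least 10. The share of isolated regions in the outer 20% at each end was 34.9%, 12.4%, 37.3% and 28.5% in the same order, 14.7% with no part left out and 31.0% with the q limit. With the q limit median folds rose to 8.56 and 9.08 and median pileups to 47 and 38, since weak peaks are removed. Leaving out a ChIP replicate gave 414 to 418 isolated peaks, which made up 1.98% to 2.26% of peaks. Median fold without a ChIP replicate was 5.86 in list 1 and 6.20 in list 2. Unpartnered peaks then count, and peaks of the other list no longer limit isolation. The 2 changes were not told apart. The number of isolated regions whose pileup departed from the expected ratio was 0 under each alternative. Leaving out the 2 high-background regions, or the first and last peaks of chromosomes, was an alternative chosen after seeing the data and stayed within error. No paired analysis was possible because no input library has values of its own here, which leaves ChIP without a group to be paired with. Depth limits what can be called a peak, so some stretches counted as empty may hold weaker binding.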
